A study of Mus musculus with 25 samples.

Results

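The bacteria described here are the smaller genera of the Oscillospiraceae, a family of strict anaerobes of the gut, in mouse feces. They were chosen by name alone: amplicon sequence variants (ASVs, distinct 16S rRNA gene sequences after error removal) whose family field read Oscillospiraceae or Ruminococcaceae, leaving out 12 listed genera, among them Ruminococcus, Acetivibrio, Anaerobacterium and Oscillibacter. This gave 83 of the 1555 ASVs, in 15 genera, with 5597 of 300831 counts (1.86%). All 83 stood under Oscillospiraceae, because 0 ASVs had Ruminococcaceae in the family field, and the 7 left-out genera that occur in this family held 391 ASVs and 19.4% of counts. Genus fields were read as written, so [Eubacterium], with 7 ASVs all named [Eubacterium] siraeum, was kept although Eubacterium is among the left-out names; the square brackets are a taxonomist's sign that the placement is in doubt.

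The full-length 16S rRNA gene had been amplified from stool DNA of C57BL/6 mice and read with PacBio long reads. The 25 libraries form 5 groups of 5: Sham and OVX, then OVX+GEX, and then the pair OVX+PBS and OVX+FMT. The stated design is mice short of estrogen, with or without a traditional medicine; OVX is the usual short form of ovariectomy, PBS of a buffered saline, FMT of fecal microbiota transplantation, and GEX is not spelled out. Every OVX-named group carries OVX, so OVX+GEX was set against OVX and OVX+FMT against OVX+PBS, while Sham is the group without it. The labels give no age, cage, dose or transplant donor, and their sex field reads male for every sample, which is at odds with ovariectomy. Nothing says which mice shared a cage or litter, so a p-value here speaks of the scatter among these libraries, which may be partly technical.

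As background, Oscillospiraceae are clostridia that live in the colon and cecum on fibre, on sugars set free by other microbes and on fermentation acids, and several form butyrate, the main fuel of the colon lining. Monoglobus pectinilyticus is a pectin degrader of the human colon, [Eubacterium] siraeum a fibre user, and Solibaculum mannosilyticum is named for its use of mannose. Pseudoflavonifractor forms butyrate, and Acutalibacter muris was first cultured from mouse gut. An ASV carries the name of its nearest relative in an unstated database: names such as Pseudoclostridium thermosuccinogenes, a heat-loving succinate former, or Paludicola psychrotolerans are names of relatives, not proof of those traits in a mouse.

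Libraries held 8498 to 22404 counts (median 10123), and 5 of them, Sham replicates 3 and 4, OVX+PBS replicate 1 and OVX+FMT replicates 1 and 5, held 17367 or more. The table had 0 values of 1 and 464 values of 2, so a listed 0 can stand for a count of 1 that was removed. Where a genus is at 0, its share can still be as high as 3 counts would give, 0.0134% in the deepest and 0.0353% in the shallowest library, and intervals cover counting error only. Several minor genera lie near that floor. OVX replicate 4, OVX+GEX replicate 2 and OVX+FMT replicate 4 stood apart from their groups in some of the genera below, and the main results that rest on them are given without them too. All values are shares of 16S counts, so a rise of other bacteria and a loss of these cannot be told apart.

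The 15 genera together made up 0.560% to 5.26% of a library. Their summed share in replicates 1 to 5 was 2.68%, 2.43%, 1.72%, 3.42% and 1.70% in Sham and 0.667%, 0.560%, 1.22%, 3.74% and 1.04% in OVX. Of the OVX libraries, 4 thus lay below the lowest Sham library and OVX replicate 4 above the highest, and the means were 2.39% ± 0.720 and 1.45% ± 1.31 (SD, n = 5), a difference of -0.944 points that became -1.52 without OVX replicate 4. In OVX+GEX the shares were 1.85%, 5.26%, 0.912%, 0.565% and 1.93%, with a mean of 2.10% ± 1.86. The difference from OVX, 0.659 points, was -0.130 without OVX+GEX replicate 2 but 1.23 without OVX replicate 4. The medians were 1.85% in OVX+GEX and 1.04% in OVX. OVX+FMT held 1.32%, 2.05%, 1.87%, 3.79% and 1.42% (mean 2.09% ± 0.995) against 1.73%, 1.56%, 0.742%, 0.771% and 0.577% in OVX+PBS (mean 1.08% ± 0.530). In OVX+PBS 2 libraries overlapped the OVX+FMT range, and the difference of 1.01 points became 0.588 without OVX+FMT replicate 4. OVX+PBS differed from OVX by -0.368 points, and by 0.207 without OVX replicate 4. No test was made on these sums.

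**Figure D1:**
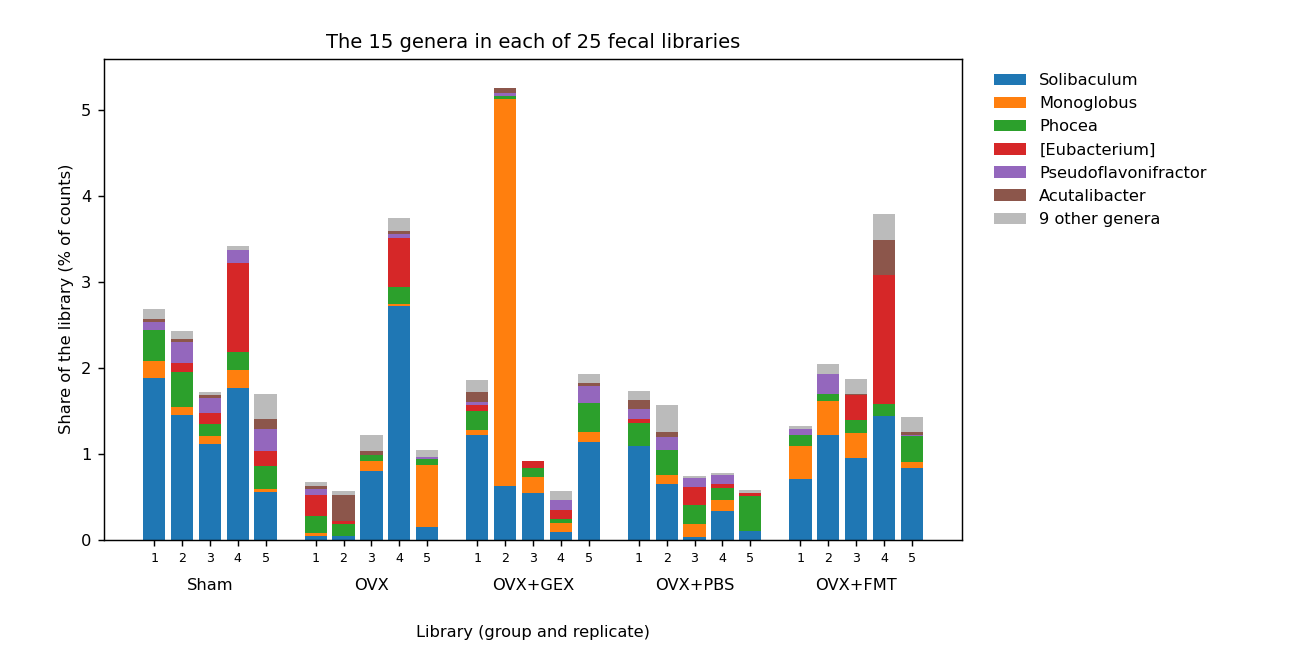
Share of each library's counts (y axis, percent) held by the 15 genera, with the 6 most abundant in colour and the other 9 in grey, for replicates 1 to 5 of each group (x axis). Solibaculum is the largest piece of every Sham bar and of many other bars, among them OVX replicate 4. Monoglobus is the largest piece of OVX+GEX replicate 2 (4.51%) and [Eubacterium] of OVX+FMT replicate 4 (1.497%).

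Duncaniella and Ligilactobacillus, abundant genera of other families, together took 25.1% ± 6.96 of Sham and 48.1% ± 12.97 of OVX counts (SD, n = 5). Taken as a share of the counts outside those genera, the 15 genera averaged 3.21% ± 0.995 in Sham and 3.08% ± 3.06 in OVX, a difference of -0.137 points. OVX replicate 4 stood at 8.41% here, and OVX replicates 1, 2, 3 and 5 at 1.47%, 0.746%, 2.59% and 2.17%. Sham libraries ran from 2.01% to 4.48%, so the small difference in means rested on OVX replicate 4. The same share was 3.92% ± 0.643 in OVX+FMT and 2.21% ± 0.772 in OVX+PBS, where the ranges, 3.35% to 4.72% and 1.26% to 3.22%, did not overlap. As shares of all counts the ranges overlapped, at 1.32% to 3.79% and 0.577% to 1.73%. They also overlapped as shares of the Oscillospiraceae, at 6.17% to 20.03% and 2.91% to 11.3%. No test was made on any of these shares. Within the Oscillospiraceae the 15 genera took 9.73% ± 2.20 in Sham, 8.55% ± 8.19 in OVX, 9.61% ± 5.64 in OVX+GEX, 6.36% ± 3.33 in OVX+PBS and 10.04% ± 5.67 in OVX+FMT. OVX replicate 4, at 22.5%, and OVX+FMT replicate 4, at 20.03%, were the highest of all 25 libraries on that measure.

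Sham libraries held more kinds of these bacteria than most OVX libraries. By the number expected at equal depth, ASVs of the whole table were also more in Sham, so the drop was not particular to these genera. The number of the 83 ASVs expected in 8498 reads was 16.9, 14.9, 16.2, 16.9 and 18.9 in Sham replicates 1 to 5 and 10.7, 9.83, 10.99, 16.9 and 9.97 in OVX, so that 4 of 5 OVX libraries lay below every Sham library. The means were 16.8 ± 1.43 and 11.7 ± 2.95 (SD, n = 5), beside 357.9 ± 35.1 and 252.3 ± 39.2 for all ASVs of the table. Counting only ASVs with at least 5 counts in a library, Sham libraries held 9 to 12 and OVX libraries 3 to 7, with no overlap. The same count over all ASVs was 246 to 364 in Sham and 174 to 252 in OVX, which overlapped. Counts of this kind are not corrected for library depth. Over all ASVs the expected numbers, which are corrected for depth, were 320.5 to 415.6 in Sham and 217.7 to 318.5 in OVX and did not overlap. OVX+GEX had 11.6 ± 4.78 expected ASVs, with OVX+GEX replicates 1 and 5 at 14.98 and 17.9 and replicate 3 at 6.00. OVX+PBS had 10.8 ± 4.66 and OVX+FMT 13.6 ± 1.74, with overlapping ranges of 6.00 to 18.2 and 10.99 to 15.3. These numbers are a description of the chosen ASVs and were not tested.

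Of the 15 genera, 11 had at least 3 counts in at least 5 libraries and were tested, in a fit of all 81 genera of the table that passed the same filter. By edgeR's quasi-likelihood test with Benjamini-Hochberg adjustment over the 81 genera, 0 of the 11 passed the threshold of 0.05 in any of the 4 comparisons. The share of all tested genera called was 0% in each of them, and at an unadjusted p under 0.05 the 11 gave 0 for OVX against Sham, 0 for OVX+GEX against OVX, 1 for OVX+FMT against OVX+PBS and 1 for OVX+PBS against OVX, beside 9, 5, 12 and 11 of all 81. DESeq2 and limma on centred log-ratios also called 0 of the 11 in each comparison. A joint test for any difference among the 5 groups called 3.7% of all genera and 0 of the 11, with 2 of them, Fournierella and Monoglobus, at an unadjusted p under 0.05 (edgeR adjusted p = 0.143 for both), beside 18 of all 81. For the 7 left-out genera of the family 0 passed in each comparison too.

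The fitted directions were mixed. For OVX against Sham 5 of the 11 had a higher and 6 a lower estimate, with a median log2 fold change of -0.36 beside 0.15 over all 81 genera. For OVX+GEX against OVX the split was 5 and 6, with a median of -0.36 beside 0.13. For OVX+FMT against OVX+PBS it was 8 and 3, with 1.31 beside 0.62, and for OVX+PBS against OVX 3 and 8, with -1.10 beside -0.47; these last comparisons share the OVX+PBS libraries. With plain library totals in place of TMM scaling, the medians over all genera were -0.22, -0.03, 0.68 and -0.65 and those of the 11 were -0.77, -0.49, 1.35 and -1.12. Standard errors ran from 0.79 for Phocea to 1.99 for Anaerotruncus on the log2 scale, so changes of several fold in the minor genera could not be resolved.

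**Figure D2:**
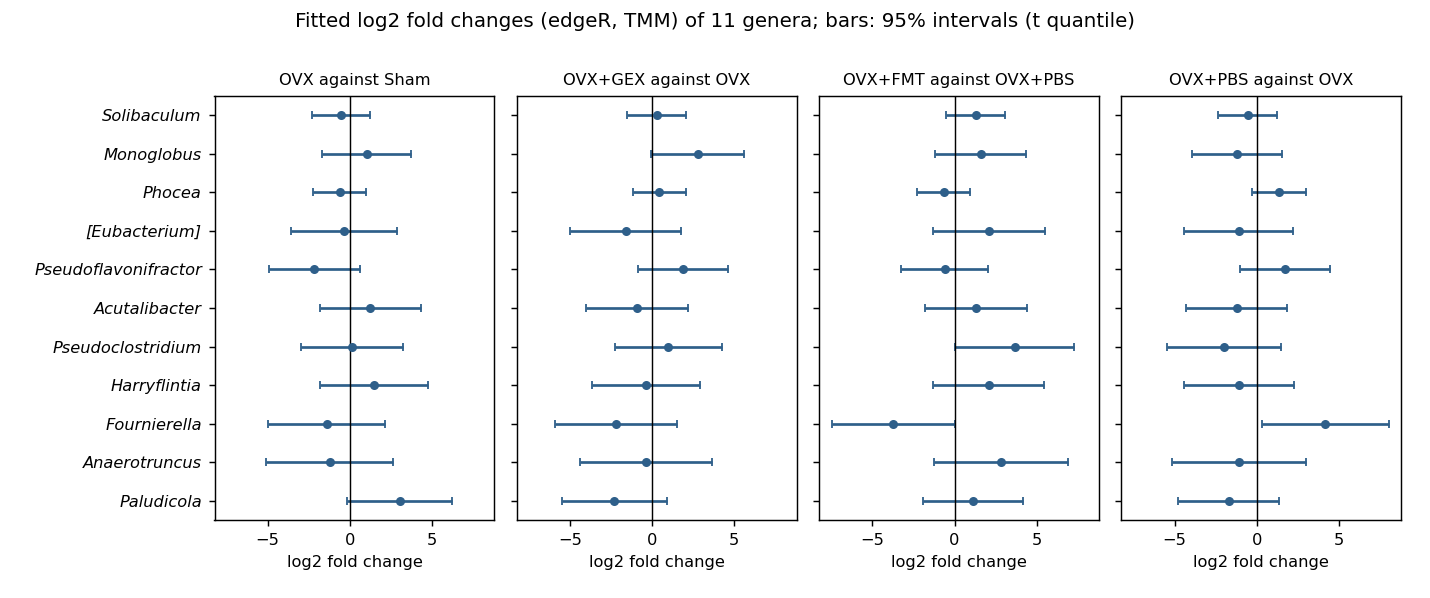
Log2 fold change fitted by edgeR after TMM scaling (x axis) of the 11 tested genera (rows, most abundant at the top) in the 4 comparisons (panels); points are estimates and bars their 95% intervals, from the standard error and the t distribution with the test's degrees of freedom. Bars clear of 0, with no adjustment for the number of genera, are those of Pseudoclostridium for OVX+FMT against OVX+PBS and Fournierella for OVX+PBS against OVX, with edgeR adjusted p-values of 0.308 and 0.276.

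Solibaculum, the only one of these genera apart from Phocea seen in all 25 libraries, held 2742 counts in 11 ASVs, 49.0% of the counts of the 15 genera. In Sham it took 1.88%, 1.44%, 1.12%, 1.76% and 0.553% of replicates 1 to 5, and in OVX 0.0355%, 0.0361%, 0.794%, 2.72% and 0.145%. In OVX 3 libraries were thus nearly without it, at 4, 4 and 14 counts, while OVX replicate 4 had the highest share of all 25 (2.72%, Wilson 95% interval 2.42% to 3.05%). The fitted log2 fold change for OVX against Sham was -0.53 (SE 0.87, edgeR adjusted p = 0.879). Without OVX replicate 4 it was -1.91 (adjusted p = 0.446), and the other 4 OVX libraries averaged 0.253% ± 0.365 (SD).

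The OVX+GEX libraries held 1.22%, 0.621%, 0.540%, 0.0824% and 1.13% Solibaculum, a mean of 0.720% ± 0.467 against 0.746% ± 1.15 in OVX (SD, n = 5). In OVX+FMT all 5 libraries held it at 0.7097% to 1.43% (mean 1.03% ± 0.293), whereas OVX+PBS ran from 0.0342% to 1.09% (mean 0.441% ± 0.437), with 4 of its 5 libraries below the lowest OVX+FMT library. The ranges overlapped through OVX+PBS replicate 1, and the fit gave 1.30 on the log2 scale (SE 0.88) with an edgeR adjusted p of 0.427. For OVX+GEX and OVX+PBS against OVX the fits gave 0.27 (SE 0.87) and -0.55 (SE 0.87), with edgeR adjusted p-values of 0.979 and 0.859, and the highest values on leaving out a library were 1.65 and 0.82, both without OVX replicate 4. In the order of the group means, Sham, OVX+FMT, OVX, OVX+GEX and OVX+PBS, no neighbours differed beyond their spread.

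Most of it lay in 2 ASVs. ASV_38 and ASV_41 held 1204 and 1111 counts, were found together in 15 libraries, apart in 4 and were both missing from 6. Where both occurred, the ratio of ASV_38 to ASV_41 counts ran from 0.432 to 4.70 with a median of 0.889. Both were in all 5 OVX+FMT libraries, and ASV_41 in all 5 Sham libraries with ASV_38 in 4. OVX had both in replicates 3 and 4 alone, and its other 3 libraries had neither.

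ASV_163, a further Solibaculum ASV with 217 counts, was in all 5 Sham libraries at 13 to 23 counts, in 3 OVX, 2 OVX+GEX and 2 OVX+FMT libraries and at 0 in all 5 OVX+PBS libraries. Its OVX share was at least 4.85-fold that of OVX+PBS, taking OVX+PBS at a floor of 3 counts per library, but at least 1.42-fold without OVX replicate 4 (edgeR adjusted p = 0.127). ASV_259 was seen in OVX+GEX alone: it had 33, 34, 39, 4 and 0 counts in replicates 1 to 5 and 0 in the other 20 libraries. With OVX at that floor it was at least 7.73-fold higher in OVX+GEX, and at least 5.93-fold without OVX+GEX replicate 3. Seen in 4 libraries, it fell short of the filter and has no test, and it made up 29.8% of the OVX+GEX Solibaculum counts. OVX+GEX replicates 3 and 4 had ASV_259 but neither ASV_38 nor ASV_41.

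**Figure D3:**
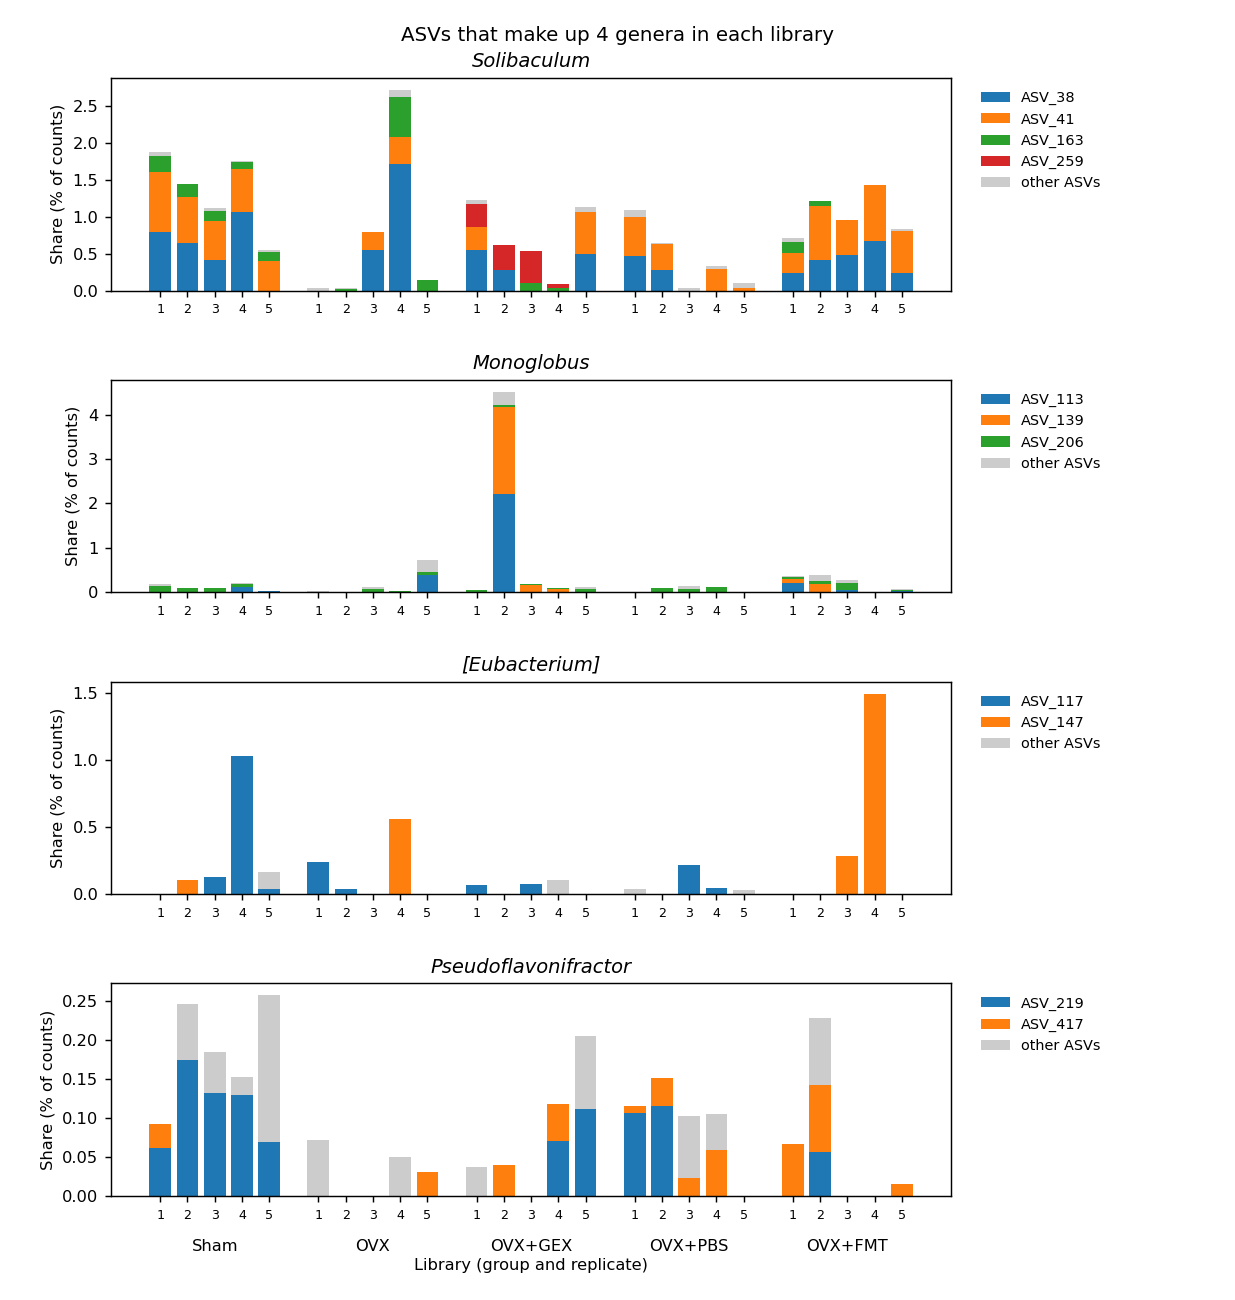
Share of each library's counts (y axes, percent, a scale of its own per panel) held by the ASVs of Solibaculum, Monoglobus, [Eubacterium] and Pseudoflavonifractor, with the main ASVs in colour and the rest in grey, for replicates 1 to 5 of each group (x axis). ASV_259 is drawn in 4 OVX+GEX bars and no other, ASV_117 and ASV_147 of [Eubacterium] never share a bar, and ASV_219 of Pseudoflavonifractor is in all 5 Sham bars and no OVX bar.

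Monoglobus, the pectin degrader, held 881 counts in 9 ASVs, 51.1% of them in a lone library. OVX+GEX replicate 2 had 450 counts, 4.51% of its total (Wilson 95% interval 4.12% to 4.94%), while the other 4 OVX+GEX libraries had 0.0470% to 0.191%. Sham libraries held 0.195%, 0.0922%, 0.0921%, 0.214% and 0.0296%, and OVX libraries 0.0355%, 0%, 0.120%, 0.0296% and 0.726%. Outside OVX+GEX replicate 2 and OVX replicate 5, every library was thus at 0.398% or less. For OVX+GEX against OVX the log2 fold change was 2.78 (SE 1.38, edgeR adjusted p = 0.503), and without OVX+GEX replicate 2 it turned to -0.52 (adjusted p = 0.964; 0.224 to 0.964 over the alternatives).

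OVX+FMT held 0.375%, 0.398%, 0.288%, 0% and 0.0659% Monoglobus, and OVX+PBS 0%, 0.107%, 0.148%, 0.129% and 0%. Of the OVX+FMT libraries 3 were above all OVX+PBS libraries and 1 had no counts, with means of 0.225% ± 0.182 and 0.0767% ± 0.0716 (SD, n = 5) and a fitted difference of 1.59 on the log2 scale (SE 1.35, edgeR adjusted p = 0.545).

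The Monoglobus ASVs differed in how widely they were spread. ASV_206 was in 19 libraries, from all 5 groups, at no more than 16 counts. ASV_113, with 342 counts, was in 7 libraries and at 0 in all 5 OVX+PBS libraries, and 64.6% of its counts came from OVX+GEX replicate 2. ASV_139 was at 0 in all Sham, OVX and OVX+PBS libraries and was seen in 3 OVX+GEX libraries (195, 14 and 6 counts in replicates 2, 3 and 4) and 2 OVX+FMT libraries (22 and 20 counts in replicates 1 and 2). With OVX at the floor it was at least 14.8-fold higher in OVX+GEX than in OVX, and at least 1.94-fold without OVX+GEX replicate 2; in OVX+FMT it was at least 2.00-fold higher than in OVX+PBS, but without OVX+FMT replicate 2 the OVX+FMT mean was below the floor.

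Of the 83 ASVs, 19 passed the filter and were tested in a fit of 379 ASVs. By edgeR 0 of the 19 passed in any of the 4 comparisons, against 0% of all ASVs called in each, and 3, 3, 4 and 4 of the 19 had an unadjusted p under 0.05 for OVX against Sham, OVX+GEX against OVX, OVX+FMT against OVX+PBS and OVX+PBS against OVX. Over all 379 ASVs the same counts were 65, 73, 80 and 94. DESeq2 and limma on centred log-ratios also called 0 of them. ASV_139 for OVX+GEX against OVX had an edgeR adjusted p of 0.202; with the other groups left out of the fit it was 0.0232, the 1 call among the alternatives, over which it ran from 0.0232 to 0.880.

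[Eubacterium] siraeum, known from the human gut as a user of plant fibre, was in 16 of 25 libraries with 598 counts. The 2 libraries with the highest shares were OVX+FMT replicate 4 at 1.497% (Wilson 95% interval 1.27% to 1.76%) and Sham replicate 4 at 1.04% (0.911% to 1.18%), and they held 142 and 232 of its counts. The other Sham libraries held 0% to 0.168% and the other OVX+FMT libraries 0%, 0%, 0.288% and 0%. OVX libraries held 0.240%, 0.0361%, 0%, 0.563% and 0%. All 4 comparisons had edgeR adjusted p-values of 0.509 or more, and the log2 fold change for OVX+FMT against OVX+PBS, 2.11, was -0.30 without OVX+FMT replicate 4.

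Its main ASVs were never found in the same library. ASV_117 was in 9 libraries, from Sham, OVX, OVX+GEX and OVX+PBS, and ASV_147 in 4, from Sham, OVX and OVX+FMT, with 0 libraries holding both. Whether 0 is fewer than independent placement would give was not tested. In Sham ASV_117 made up 91.8% of the counts of the genus; in OVX+FMT ASV_147 made up all 171 of them and ASV_117 was at 0. ASV_147 fell short of the filter; with no filter its edgeR adjusted p for OVX+FMT against OVX+PBS was 0.323. With OVX+PBS at the floor it was at least 12.4-fold higher in OVX+FMT, and at least 2.51-fold without OVX+FMT replicate 4. For ASV_117 the OVX+FMT against OVX+PBS comparison had an edgeR adjusted p of 0.175, and without OVX+PBS replicate 3, its highest library, the OVX+PBS mean was below the floor.

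**Figure D4:**
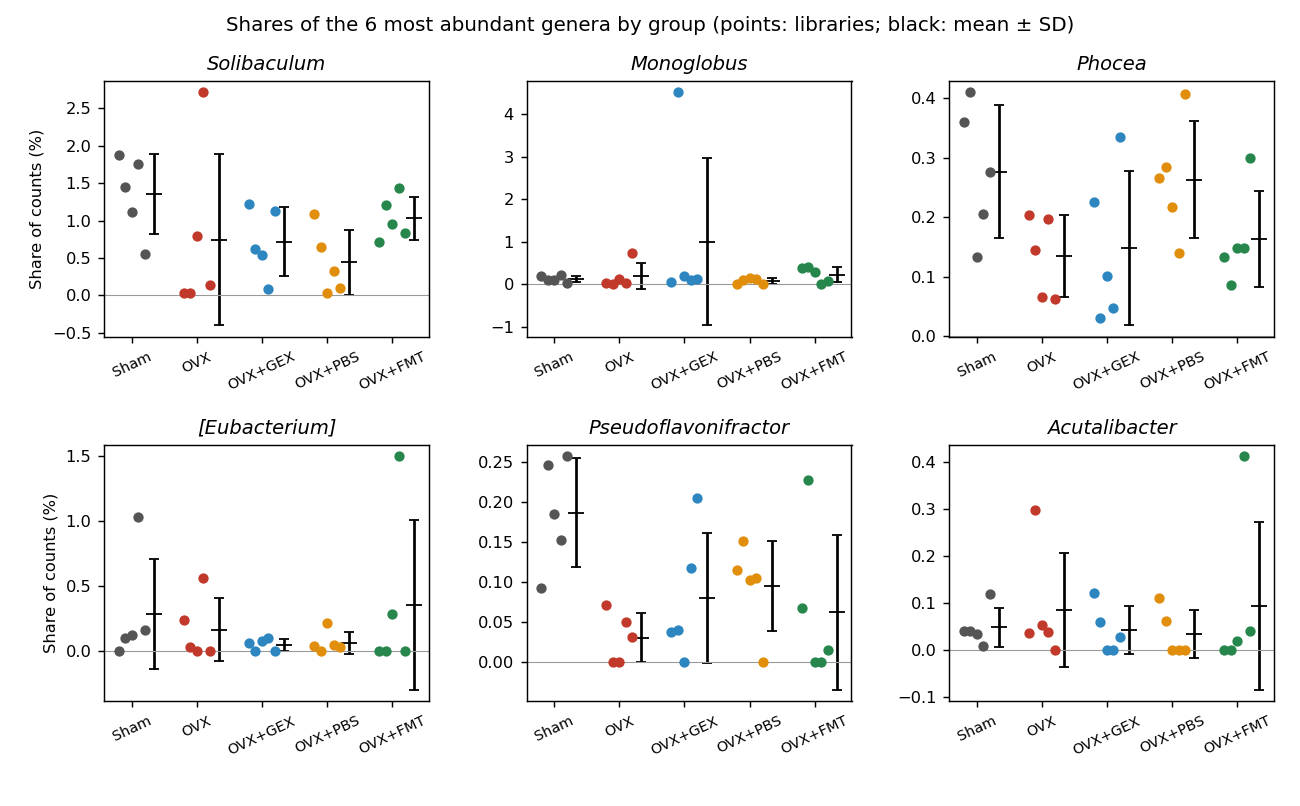
Share of counts (y axes, percent, a scale of its own per panel) of the 6 most abundant of these genera in each library (coloured points) by group (x axis), with the mean and SD of 5 libraries in black; SD bars may reach below 0 where a high library sets the spread. All 5 Sham points of Pseudoflavonifractor lie above all 5 OVX points, but the nearest, Sham replicate 1 and OVX replicate 1, rest on 9 and 8 counts. Lone high points set the means of Monoglobus in OVX+GEX and of [Eubacterium] and Acutalibacter in OVX+FMT.

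Pseudoflavonifractor, the butyrate former, was lower in every OVX library than in any Sham library. It held 0.0924%, 0.246%, 0.184%, 0.152% and 0.257% of Sham replicates 1 to 5 (9 to 34 counts) and 0.0711%, 0%, 0%, 0.0494% and 0.0311% of OVX (0 to 8 counts). The means were 0.186% ± 0.0680 and 0.0303% ± 0.0311 (SD, n = 5). It was the only one of the 81 genera whose Sham and OVX ranges did not overlap, 1.23% of genera. The edgeR fit gave a log2 fold change of -2.16 (SE 1.35) with an adjusted p of 0.688, and the adjusted p was 0.269 to 0.893 over the alternatives, so the difference did not pass the test. For OVX+GEX against OVX and for OVX+PBS against OVX 1.23% of genera had ranges apart, and for OVX+FMT against OVX+PBS 0%; none of the 15 was among them.

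OVX+GEX libraries held 0.0376%, 0.0401%, 0%, 0.118% and 0.204% Pseudoflavonifractor and OVX+PBS libraries 0.115%, 0.151%, 0.103%, 0.105% and 0%. Each had 4 of 5 libraries with counts, and both ranges overlapped that of OVX (log2 fold changes of 1.86, SE 1.35, and 1.69, SE 1.33; edgeR adjusted p of 0.719 and 0.587). In OVX+FMT the shares were 0.0670%, 0.228%, 0%, 0% and 0.0152%. The genus held 2 species names: 8 ASVs with 141 counts were named P. capillosus and 1 ASV, ASV_219 with 142 counts, P. phocaeensis.

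ASV_219 was chosen after its values were seen. It was in all 5 Sham libraries, at 6, 17, 23, 29 and 7 counts, and at 0 in all 5 OVX libraries, so that, with OVX taken at the floor, Sham was at least 3.85-fold higher, and at least 3.34-fold without Sham replicate 2, its highest by share. It was seen again in 2 OVX+GEX, 2 OVX+PBS and 1 OVX+FMT libraries, at most 23 counts each. The edgeR adjusted p for OVX against Sham was 0.158, and 0.0786 to 0.459 over the alternatives. Library totals in Sham were 9735 to 22404 against 9189 to 11252 in OVX, and the part of depth in these counts was not tested.

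Phocea, a genus cultured from the human gut, was the most evenly spread, at 3 to 59 counts in all 25 libraries and 15 ASVs. It averaged 0.277% ± 0.112 in Sham, 0.135% ± 0.0689 in OVX, 0.148% ± 0.129 in OVX+GEX, 0.263% ± 0.0982 in OVX+PBS and 0.163% ± 0.0803 in OVX+FMT (SD, n = 5). The OVX libraries held 0.204%, 0.144%, 0.0653%, 0.198% and 0.0622% and the Sham libraries 0.360%, 0.410%, 0.132%, 0.205% and 0.276%. Thus 4 of 5 Sham libraries lay above every OVX library, but Sham replicate 4, at 0.205%, was nearly level with OVX replicate 1, at 0.204%. The log2 fold changes were -0.62 (SE 0.79) for OVX against Sham and 1.36 (SE 0.80) for OVX+PBS against OVX, with edgeR adjusted p-values of 0.879 and 0.413. ASV_103 gave 63.7% of its counts and was in 23 libraries, while ASV_425, chosen after its values were seen, was in 3 OVX+FMT libraries and 1 OVX+GEX library only and held 30.7% of the OVX+FMT counts of the genus.

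Acutalibacter, the mouse gut isolate, had 176 counts in 17 libraries and at most 39 in a library. OVX+FMT replicate 4 (0.411%) and OVX replicate 2 (0.298%) were the highest, and every other library held 0.122% or less. Sham had it in all 5 libraries at 2 to 12 counts, OVX in 4, OVX+GEX in 3, OVX+PBS in 2 and OVX+FMT in 3. All 4 comparisons had edgeR adjusted p-values of 0.620 or more, and the log2 fold change for OVX+FMT against OVX+PBS, 1.31, was -0.56 without OVX+FMT replicate 4.

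The remaining 5 tested genera were rarer, at 39 to 73 counts each, and all but 2 of their group means were under 0.05%, the others being Fournierella in OVX+PBS (0.0709% ± 0.135) and Pseudoclostridium in OVX+FMT (0.0544% ± 0.0422; SD, n = 5). Fournierella, a single ASV from a genus of the human gut, had 35 of its 55 counts in OVX+PBS replicate 2 and was at 0 in OVX+GEX. Its log2 fold change for OVX+PBS against OVX was 4.17 (SE 1.87, edgeR adjusted p = 0.276) and fell to 1.91 without that library (adjusted p = 0.668; 0.165 to 0.668 over the alternatives). For OVX+FMT against OVX+PBS it was -3.73 (SE 1.81, adjusted p = 0.308), and -1.47 without the same library.

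Pseudoclostridium was in 4 of 5 OVX+FMT libraries, at 4 to 10 counts, and in 1 OVX+PBS library at 3. Its log2 fold change of 3.66 (SE 1.77) had an edgeR adjusted p of 0.308, and 0.253 to 0.585 over the alternatives. Its 9 ASVs were narrowly spread: 3 of them, with 7 to 20 counts, were each seen in 2 or 3 libraries of a lone group, OVX+FMT, OVX+GEX or Sham. Paludicola was in 1 Sham library (2 counts) and 3 OVX libraries (2 to 9 counts), with 3.04 on the log2 scale (SE 1.56, edgeR adjusted p = 0.454; 1.78 without OVX replicate 3 and 4.93 without Sham replicate 1), and in 4 OVX+FMT libraries at 2 to 4 counts. Anaerotruncus was in 5 libraries, 1 of each group, with 20 counts in Sham replicate 5, 21 in OVX+FMT replicate 4 and 3 to 5 in the others. Harryflintia was in 12 libraries at 2 to 22 counts. The edgeR adjusted p-values of the 4 comparisons were 0.459 or more for Anaerotruncus and 0.509 or more for Harryflintia.

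Sporobacter (16 counts in 5 libraries), Ruthenibacterium (7 in 3), Caproiciproducens (5 in 1) and Anaeromassilibacillus (2 in 1) did not reach the filter, and no difference in them was detectable at this depth. Between 4 and 10 of the 15 genera were seen in a library: Sham had 8 to 9, OVX 5 to 9, OVX+FMT 6 to 9, OVX+GEX 4 to 9 and OVX+PBS 4 to 10.

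By role, 3 of 12 genera listed as butyrate formers had ASVs here: Pseudoflavonifractor, Anaerotruncus and Harryflintia, the last of which is named for acetate. Their summed share was 0.238% ± 0.156 in Sham, 0.0656% ± 0.0347 in OVX, 0.102% ± 0.103 in OVX+GEX, 0.109% ± 0.0648 in OVX+PBS and 0.136% ± 0.0893 in OVX+FMT (SD, n = 5), and 0 of the 3 passed the test in any comparison. Sham ranged from 0.0924% to 0.494% and OVX from 0.0311% to 0.116%. The 3 did not go the same way. Pseudoflavonifractor averaged 0.186% in Sham and 0.0303% in OVX, but Harryflintia 0.0120% in Sham and 0.0244% in OVX. Anaerotruncus was in 1 library of each of these groups, at 20 counts in Sham replicate 5 and 5 in OVX replicate 3. Of 10 genera listed as users of plant polysaccharides, a role not checked for these ASVs, Monoglobus and Caproiciproducens had ASVs. Monoglobus made up nearly all of their share, and [Eubacterium], called a fibre user above, was not on that list. Of 17 genera put on a list of mouse or human gut isolates 7 had ASVs. Paludicola, with 39 counts, was among the 7, but its place on such a list is in doubt. The 7 took 1.82% ± 0.638 of Sham, 1.18% ± 1.09 of OVX, 1.91% ± 1.94 of OVX+GEX, 0.894% ± 0.528 of OVX+PBS and 1.54% ± 0.335 of OVX+FMT counts. Of the 7, 6 were tested and 0 passed.

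The 83 ASVs were about as patchy as the other ASVs. Of them 31 (37.3%) were seen in 1 library, against 37.3% of the ASVs of the left-out genera and 39.1% of all ASVs. Another 11 (13.3%) were in 10 or more libraries and held 63.6% of the counts, while in the left-out genera such ASVs held 81.4% and over all ASVs 83.7%. The 83 were seen in Sham for 43 ASVs (51.8%), in OVX for 38, in OVX+GEX for 32, in OVX+PBS for 34 and in OVX+FMT for 38, while 58.4% of all ASVs were seen in Sham. Of the 52 seen in 2 or more libraries, 4 (7.69%) kept to a lone group, against 8.13% over all ASVs. Those 4 were ASV_259 and ASV_828 in OVX+GEX, ASV_718 in OVX+FMT and ASV_1082 in Sham, the last 3 all Pseudoclostridium and chosen after their values were seen.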

How the data were processed

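The authors deposited read counts per ASV and library with a taxonomy of 7 ranks, converted from a BIOM file per the file headers. The submitters' processing notes name Subread alone, without its role or version. Which denoiser, primers, taxonomy database or count filters were used is not given in the sources used here. DNA came from stool by a commercial fecal kit, per the labels' protocols. Columns were matched to samples by name; 5 spelled OVX+GES were taken as OVX+GEX. No pair of libraries held identical counts.

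Counts were summed per genus within family and tested with edgeR 4.0.16 (quasi-likelihood F test, TMM, all 25 libraries in 1 fit, R 4.3.3), keeping features with at least 3 counts in at least 5 libraries; the same was done per ASV. Standard errors came from the F statistic. Code was tested on simulated data. Alternatives were other scalings, DESeq2 1.42.0, limma 3.58.1 on centred log-ratios (0.5 added), other filters, fewer groups, each library left out and the replicate number as a block. Replicate numbers are shared by the labels with no stated meaning. Same-numbered libraries deviated together (correlations of genus deviations of 0.136 to 0.211 in 5 of 5 pairs) for OVX+GEX against OVX, but not for the other comparisons (-0.302 to 0.223). A pairing in the first would thus be read from the data and not from the labels. The main fit used group alone in every comparison and was not paired, and the block was run only as an alternative.

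Named were all genera here, the 10 ASVs with the highest mean share and any past the threshold (none); other ASVs are marked as chosen after their values were seen. Members and lists were chosen with earlier results of these data known.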

Additional observations from a re-analysis of the deposited data

Results flagged for a closer look

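In 26 of 65 sets of 5 libraries the highest library lay further from the next than Dixon's 95% limit for 5 values allows. That limit marks about 1 in 20 sets of normally distributed values. These shares hold many zeros, so the 26 cannot be set against that rate. With rare genera, counts in a lone library of a group are enough to be marked. [Eubacterium] stood at 1.04% in Sham replicate 4 (others at most 0.168%), 0.217% in OVX+PBS replicate 3 (others at most 0.0467%) and 1.497% in OVX+FMT replicate 4 (others at most 0.288%). Pseudoclostridium stood at 0.0717% in Sham replicate 2 (others at most 0.0179%), 0.0988% in OVX replicate 4 (others at most 0%) and 0.0138% in OVX+PBS replicate 1 (others at most 0%). Fournierella stood at 0.0616% in Sham replicate 1 (others at most 0.0179%), 0.0198% in OVX replicate 4 (others at most 0%), 0.311% in OVX+PBS replicate 2 (others at most 0.0340%) and 0.0316% in OVX+FMT replicate 4 (others at most 0%). Anaerotruncus stood at 0.197% in Sham replicate 5 (others at most 0%), 0.0544% in OVX replicate 3 (others at most 0%), 0.0279% in OVX+GEX replicate 5 (others at most 0%), 0.0184% in OVX+PBS replicate 1 (others at most 0%) and 0.221% in OVX+FMT replicate 4 (others at most 0%). Paludicola stood at 0.0205% in Sham replicate 1 (others at most 0%), 0.0282% in OVX+GEX replicate 1 (others at most 0%) and 0.0368% in OVX+PBS replicate 1 (others at most 0%). The summed share of the 15 genera was 3.74% in OVX replicate 4, against 0.560% to 1.22% in the other OVX libraries. The same library had 16.9 expected ASVs of these genera, against 9.83 to 10.99 in the rest of its group. Solibaculum stood at 2.72% in OVX replicate 4 (others at most 0.794%). Monoglobus stood at 0.726% in OVX replicate 5 (others at most 0.120%) and 4.51% in OVX+GEX replicate 2 (others at most 0.191%). Acutalibacter stood at 0.298% in OVX replicate 2 (others at most 0.0544%) and 0.411% in OVX+FMT replicate 4 (others at most 0.0405%). Harryflintia stood at 0.111% in OVX+FMT replicate 5 (others at most 0.0199%).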

How the results depend on the processing

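The count of genera past the threshold among the 11 tested was 0 under every alternative run, in each of the 4 comparisons and for any difference among the groups. The count of ASVs was 0 throughout, save for 1 (ASV_139 of Monoglobus) for OVX+GEX against OVX with only those groups in the fit. The replicate block gave 0 too, and changed no call. Leaving out each library in turn gave 0 each time. As a share of the family, the summed share differed by 3.68 points for OVX+FMT against OVX+PBS and by -2.19 for OVX+PBS against OVX. Without [Eubacterium], a choice made after seeing the data, as was summing genera by name alone, the 4 differences in summed share were -0.826, 0.777, 0.722 and -0.268 points. No genus estimate had a call to lose, but signs turned; the cause was not tested. With limma on centred log-ratios the log2 fold change turned for OVX against Sham Anaerotruncus (0.48), Monoglobus (-0.41), Pseudoclostridium (-0.24), for OVX+GEX against OVX Anaerotruncus (0.057), Phocea (-0.078), for OVX+FMT against OVX+PBS Acutalibacter (-0.010), Anaerotruncus (-0.20), [Eubacterium] (-0.94), for OVX+PBS against OVX Anaerotruncus (0.38), Pseudoclostridium (0.12), Solibaculum (0.74), [Eubacterium] (0.38). With plain totals the log2 fold change turned for OVX against Sham Pseudoclostridium (-0.10), for OVX+GEX against OVX Solibaculum (-0.049). With no filter the log2 fold change turned for OVX against Sham Pseudoclostridium (-0.28). With the replicate block the log2 fold change turned for OVX against Sham Anaerotruncus (0.90), Pseudoclostridium (-1.28), for OVX+GEX against OVX Phocea (-0.13). Leaving out each library in turn, the sign turned for OVX against Sham in these ranges: Fournierella -3.63 to 0.047, Pseudoclostridium -4.08 to 0.98, [Eubacterium] -1.47 to 0.84, Anaerotruncus -4.83 to 3.53, Acutalibacter -0.35 to 1.69, Monoglobus -0.91 to 1.31. Leaving out each library in turn, the sign turned for OVX+GEX against OVX in these ranges: Solibaculum -0.24 to 1.65, Acutalibacter -1.45 to 0.50, Harryflintia -1.22 to 0.012, Anaerotruncus -3.60 to 3.21, Phocea -0.54 to 0.69, Monoglobus -0.52 to 4.45, Pseudoclostridium -0.50 to 5.18. Leaving out each library in turn, the sign turned for OVX+FMT against OVX+PBS in these ranges: Acutalibacter -0.56 to 2.24, Anaerotruncus -2.38 to 5.22, [Eubacterium] -0.30 to 2.99, Harryflintia -0.11 to 2.71. Leaving out each library in turn, the sign turned for OVX+PBS against OVX in these ranges: Acutalibacter -2.17 to 0.11, Anaerotruncus -3.53 to 2.49, Pseudoclostridium -4.15 to 2.19, Solibaculum -1.05 to 0.82, [Eubacterium] -1.98 to 0.0094, Monoglobus -1.53 to 1.01. Depth limits the rare genera most: 3 counts are 0.0134% to 0.0353% of a library, and a count of 1 was never listed.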
